A study of Saccharomyces cerevisiae with 5 samples.

Results

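The genes described here carry carbon from acetate, ethanol and lactate back to sugar in the budding yeast Saccharomyces cerevisiae. They were chosen by gene symbol from the annotation of the array's probes: PCK1, FBP1, ICL1, MLS1, MDH2, CIT2, ACS1, JEN1, CAT8 and ADR1. All 10 symbols were found, each on 1 probe, among 6249 yeast features of which 4068 were named genes. Polyadenylated RNA was compared on 5 arrays of 2 dyes, and each comparison rests on a single array. On 3 arrays the siw14 deletion strain (Siw14D in the labels), which lacks the inositol pyrophosphate phosphatase Siw14, was set against the wild type BY4741: both strains unstressed, both in 0.4 mM hydrogen peroxide for 20 min, or both in 0.4 M KCl for 20 min. On the other 2 arrays a wild type that the labels call ACY044 was set, in the same dose of peroxide or of KCl for 20 min, against unstressed ACY044 cells. All cultures were in log phase in synthetic complete medium when stress was applied. For both arrays of stressed siw14 cells the label of the wild-type source names only the medium, while its treatment label names the stress, which was followed. The siw14 or stressed cells carried Cy5 on every array, so that dye and condition cannot be told apart. The sources used here do not say how ACY044 and BY4741 differ, nor whether the wild-type arrays drew on 1 unstressed culture.

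Yeast growing on glucose burns sugar by glycolysis and keeps the reverse route shut. When glucose runs out, the Snf1 kinase lifts the repression exerted by Mig1, and the activators Cat8 and Adr1 switch on the genes for using acetate, ethanol and lactate. Acetyl-CoA then enters the glyoxylate cycle, which skips the steps of the citric acid cycle that release carbon dioxide, and gluconeogenesis turns the resulting oxaloacetate into sugar phosphate. When glucose returns, the messages decay and the GID ubiquitin ligase marks gluconeogenic enzymes such as fructose bisphosphatase for degradation.

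Each value is the deposited log ratio of the Cy5 channel (siw14 or stressed cells) over the Cy3 channel (wild type or unstressed cells), read as log2. The base of the logarithm is not stated, and natural logarithms would make each fold larger. Genes with a log2 ratio of at least 1 in size, that is 2-fold, were counted as higher or lower by size alone, with no test. No difference has a replicate check, and no p-value can be given. Array medians lay between -0.017 and 0.030. The spread of the arrays was not equal: the quartiles of all features were -0.24 and 0.28 on the unstressed siw14 array, and lay between -0.50 and -0.48 and between 0.51 and 0.53 on the other 4. SIW14 itself lay at -2.07, -1.66 and -2.06 on the siw14 arrays without stress, in peroxide and in KCl, against 0.28 and -0.22 in wild-type peroxide and KCl. The E1A control features, which are not yeast genes, had medians of 2.08, 1.17 and 0.98 on the same siw14 arrays (3, 7 and 9 features with a value) and of -0.37 and 0.15 on the wild-type arrays (10 and 6 features). Single E1A features ran from 1.68 to 2.35, from -2.01 to 2.28 and from -0.86 to 2.54 on these siw14 arrays. On the wild-type arrays they ran from -0.69 to -0.17 and from -1.06 to 0.44. Their part in the results was not tested, and no spot intensities were used here.

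**Figure D1:**
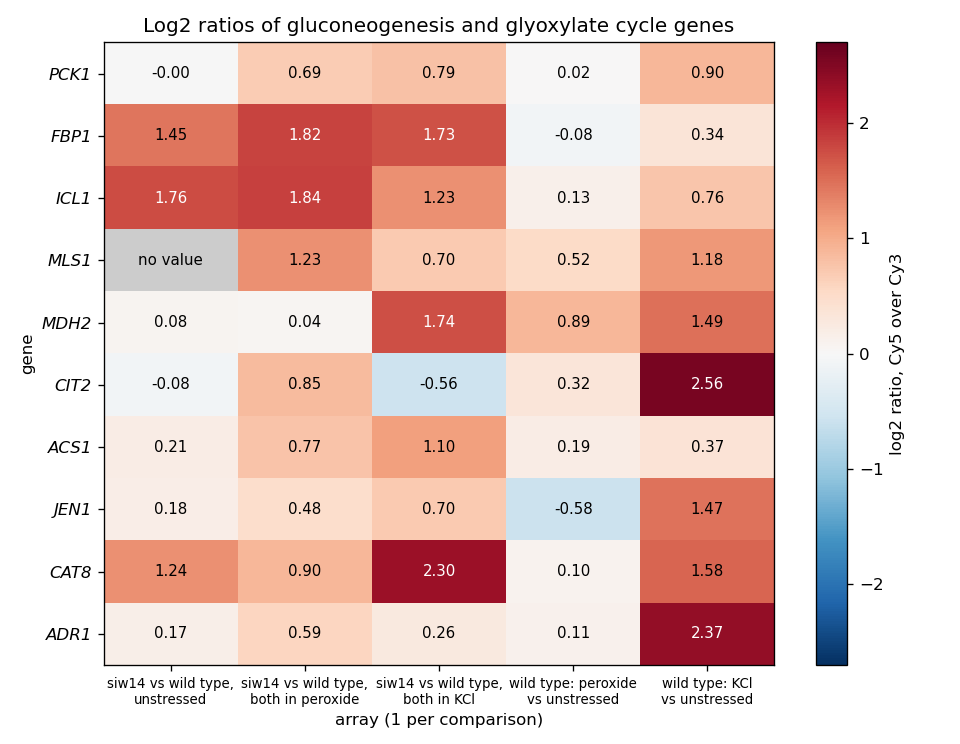
Log2 ratio of each gene (rows) on each array (columns), with the value printed in each cell and grey for the 1 missing value. FBP1, ICL1 and CAT8 are high on the unstressed siw14 array, and CIT2 and ADR1 have their highest ratios in wild-type KCl.

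In unstressed cells, siw14 had the genes for fructose bisphosphatase, isocitrate lyase and the activator Cat8 above the wild type by 2.73-fold, 3.39-fold and 2.37-fold. The other 6 genes with a value were within 0.21 of 0 on the log2 scale. MLS1 had no value on this array. At least 2-fold higher ratios were seen for 3 of 9 genes, against 6.18% of all 5603 features with a value, and 0 were at least 2-fold lower, against 1.55% of features. Once the arrays were scaled to a common spread the count was still 3 of 9, but the share of all features at least 2-fold higher was 12.3% and of those lower 7.14%. The median of the 9 genes was 0.18, against -0.00040 over all features.

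With both strains in peroxide, siw14 again had FBP1 and ICL1 more than 2-fold above the wild type, while CAT8 was below that mark. MLS1, which had no value without stress, was also past 2-fold. The ratios of all 10 genes were above 0, from 0.044 for MDH2 to 1.84 for ICL1. Of the 10 genes, 3 were at least 2-fold higher, against 12.8% of 5806 features, and 0 lower, against 8.3%. The median of the genes was 0.81, against -0.017 over all features.

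With both strains in KCl, 5 genes were at least 2-fold higher in siw14 than in wild type: CAT8, MDH2, FBP1, ICL1 and ACS1. That count compares with 11.4% of 5816 features at least 2-fold higher. The count of lower genes was 0, against 11% of features. CIT2 was the 1 gene below 0. The median of the 10 genes was 0.95, against -0.0038 over all features.

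**Figure D2:**
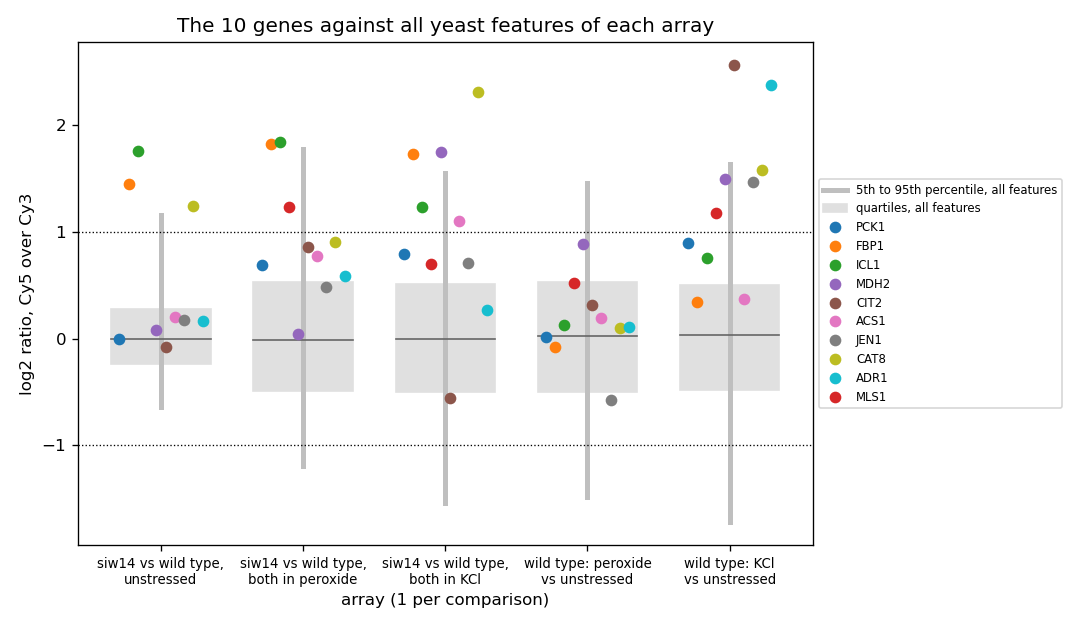
Log2 ratios of the 10 genes (coloured points) on each array, over the quartiles (grey box), the median (line) and the 5th to 95th percentiles (grey bar) of all yeast features, with dotted lines at 2-fold. The unstressed siw14 array has the narrowest spread of features, and there FBP1 at 1.45, ICL1 at 1.76 and CAT8 at 1.24 lie above the 95th percentile of 1.16.

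The gluconeogenic enzyme genes had unlike ratios in the deletion strain. FBP1 (YLR377C) encodes fructose bisphosphatase, which makes fructose phosphate in the step that glycolysis cannot run backwards. It had log2 ratios of 1.45 unstressed, 1.82 in peroxide and 1.73 in KCl for siw14 against wild type. It was thus 2.73-fold, 3.52-fold and 3.31-fold higher, above 96.6%, 95.2% and 96.0% of features. PCK1 (YKR097W) encodes phosphoenolpyruvate carboxykinase, which starts the route from oxaloacetate. Its log2 ratios were -0.0049 unstressed, 0.69 in peroxide and 0.79 in KCl, so it stayed under 2-fold on all 3 arrays. PCK1 lay above 49.4% of features without stress and above 80.1% and 84.2% in the stresses.

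MDH2 (YOL126C) encodes the cytosolic malate dehydrogenase, which supplies oxaloacetate from malate made by the glyoxylate cycle. For siw14 against wild type it lay at 0.081 unstressed and 0.044 in peroxide, but at 1.74 in KCl, a 3.35-fold difference. Its value in KCl was above 96.1% of features, while those in the other conditions were above 58.5% and 52.9%. Among these genes MDH2 thus had the widest gap between the siw14 array in peroxide and that in KCl, a peroxide minus KCl difference of -1.70 in log2 ratio. A difference still lower than that was seen for 0.68% of features.

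The glyoxylate cycle genes also had a range of ratios. ICL1 (YER065C) encodes isocitrate lyase, the enzyme that splits isocitrate at the entry of the shunt. It lay at 1.76 unstressed, 1.84 in peroxide and 1.23 in KCl, or 3.39-fold, 3.59-fold and 2.34-fold higher in siw14 than in wild type. ICL1 had the highest ratio of the 10 genes on the first of these arrays, where it ranked 126 of 5603 features from the top, and on the peroxide array, where it ranked 275 of 5806. MLS1 (YNL117W) encodes malate synthase, which joins glyoxylate to acetyl-CoA. Its ratios were 1.23 in peroxide and 0.70 in KCl, so that it was past 2-fold in peroxide and short of it in KCl.

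CIT2 (YCR005C) encodes the peroxisomal citrate synthase, a gene also known as a target of the retrograde signal from damaged mitochondria. In siw14 against wild type it lay at -0.083 unstressed, 0.85 in peroxide and -0.56 in KCl. Its ratio was above 84.5% of features in peroxide but above only 22.6% in KCl, and it was under 2-fold in size in every condition of this comparison.

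ACS1 (YAL054C) encodes the acetyl-CoA synthetase used on poor carbon sources, and lay at 0.21 unstressed, 0.77 in peroxide and 1.10 in KCl. Only the KCl value, 2.15-fold, was past the 2-fold mark. JEN1 (YKL217W) encodes the plasma membrane carrier of lactate and pyruvate, and lay at 0.18, 0.48 and 0.70 in the same conditions. JEN1 was under 2-fold on all siw14 arrays.

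Of the activator genes, CAT8 had the higher ratio on each siw14 array. CAT8 (YMR280C) encodes a zinc cluster activator that binds the carbon source response elements of many of these genes. It lay at 1.24 unstressed, 0.90 in peroxide and 2.30 in KCl for siw14 against wild type, or 2.37-fold, 1.87-fold and 4.94-fold. In KCl it had the highest ratio of the 10 genes and ranked 112 of 5816 features from the top. ADR1 (YDR216W) encodes a zinc finger activator of genes for ethanol, glycerol and fatty acid use, and lay at 0.17, 0.59 and 0.26. ADR1 was thus under 2-fold on each siw14 array.

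**Figure D3:**
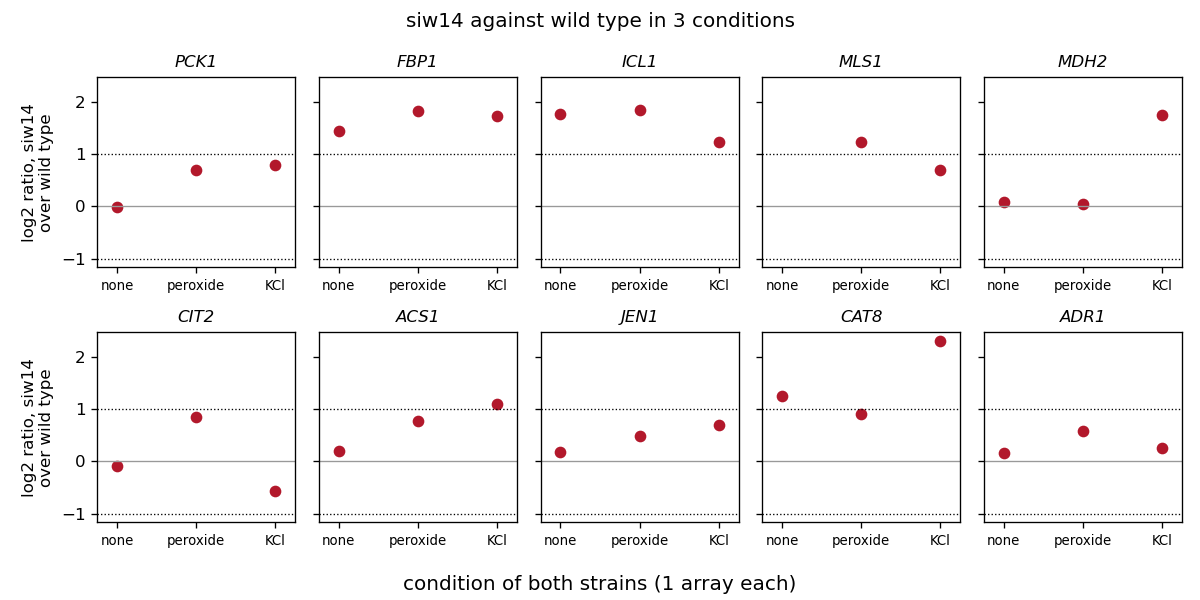
Log2 ratio of siw14 over wild type for each gene (panels) with both strains unstressed, in peroxide or in KCl, 1 array each, with dotted lines at 2-fold. FBP1 and ICL1 are past 2-fold in all 3 conditions, MDH2 only in KCl at 1.74, and CIT2 lies on opposite sides of 0 in peroxide (0.85) and KCl (-0.56).

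The siw14 ratio in stress was also set against that without stress by subtraction, gene by gene, over the 9 genes with all values. In peroxide minus unstressed, 7 of 9 differences were above 0, with a median of 0.37 against -0.022 over all features. The highest was CIT2 at 0.94 and the lowest was CAT8 at -0.34. A difference of 1 or more was seen for 5.09% of features, and for none of the 9 genes. In KCl minus unstressed, 7 of 9 were above 0, with a median of 0.53 against -0.011. MDH2 at 1.66 and CAT8 at 1.06 were past 1, as were 4.06% of features, while ICL1 lay at -0.53 and CIT2 at -0.48. These sizes depend on the unequal spread of the arrays. Once each array was scaled to a common spread, the median became 0.11 in peroxide, against -0.067 over all features. In KCl it became -0.058, against -0.075 over all features. With this scaling ICL1, FBP1 and CAT8 lay at 3.12, 2.57 and 2.21 on the unstressed array. On the peroxide array they lay at 1.64, 1.62 and 0.80, and on the KCl array at 1.12, 1.57 and 2.10. Each of these genes thus had a lower siw14 ratio in stress than unstressed, and the CAT8 difference past 1 in KCl was lost. MDH2 still had the higher ratio in KCl, 1.59 against 0.14 unstressed. PCK1, ACS1 and JEN1 stayed higher in both stresses than unstressed.

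In wild-type cells in peroxide, 0 of the 10 genes were at least 2-fold higher, against 10.7% of 6053 features, and 0 lower, against 11.3%. Their median was 0.12, against 0.027 over all features. MDH2 was the highest at 0.89, or 1.85-fold, and MLS1 followed at 0.52. JEN1 was the lowest at -0.58. The other 7 lay between -0.077 for FBP1 and 0.32 for CIT2.

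In wild-type cells in KCl the ratios of all 10 genes were above 0, led by CIT2 and the activator gene ADR1. FBP1 and ACS1 lay below the upper quartile of all features, 0.51. The ratios ran from 0.34 for FBP1 to 2.56 for CIT2, and 6 of 10 genes passed the 2-fold mark upwards, against 11.5% of 6147 features. None was at least 2-fold lower, against 11.7% of features. The median of the genes was 1.32, against 0.030 over all features. Both wild-type arrays have unstressed ACY044 cells in their Cy3 channel, so their values are only set side by side here.

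CIT2 lay at 0.32 in wild-type peroxide and at 2.56 in wild-type KCl, where it was 5.89-fold higher than in unstressed cells and ranked 133 of 6147 features. ADR1 lay at 0.11 in peroxide and at 2.37, or 5.18-fold, in KCl. CAT8 lay at 0.10 in peroxide and at 1.58, or 2.99-fold, in KCl. Both activator genes were thus past 2-fold in KCl and close to 0 in peroxide.

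MDH2 lay at 1.49, or 2.82-fold, in wild-type KCl. JEN1 lay at 1.47, or 2.76-fold, which is on the other side of 0 from its value of -0.58 in peroxide. MLS1 lay at 1.18, or 2.26-fold. The remaining genes were short of 2-fold in wild-type KCl: PCK1 lay at 0.90, ICL1 at 0.76, ACS1 at 0.37 and FBP1 at 0.34.

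The order of the genes in unstressed siw14 cells against wild type was not that of the stress response. FBP1 and ICL1, the genes with the highest ratios in unstressed siw14 cells, lay at -0.077 and 0.13 in wild-type peroxide and at 0.34 and 0.76 in wild-type KCl. CIT2 and ADR1, the highest in wild-type KCl, lay at -0.083 and 0.17 in unstressed siw14 cells against wild type. CAT8 was past 2-fold in both settings, in unstressed siw14 cells and in wild-type KCl. On the siw14 array in KCl, CAT8 at 2.30 and MDH2 at 1.74 were the highest, and in wild-type KCl they lay at 1.58 and 1.49. The wild type was BY4741 on the siw14 arrays and ACY044 on the stress arrays. With 1 array each, no spread is at hand to say which neighbours in these orders differ. Among yeast genes, the only repeat measurement within an array came from 7 genes with several probes. Probes of 1 gene differed by a median of 0.42 and at most 2.06 over 28 pairs of gene and array.

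Genes around the route were read from 8 lists of 72 genes, of which several stand in more than 1 list. Their counts are to be read against the share of all features at least 2-fold higher on the same array, which was 6.18%, 12.8% and 11.4% for siw14 unstressed, in peroxide and in KCl and 10.7% and 11.5% for wild-type peroxide and KCl. Targets and partners of Cat8, Sip4 and Adr1 outside the 10 genes had a median of -0.18 in unstressed siw14 cells, with 0 of 11 at least 2-fold higher. The alcohol dehydrogenase gene ADH2, which turns ethanol into acetaldehyde, lay at -0.91 there, and the acetate transporter gene ADY2 at -0.79. These were the lowest ratios in the list, while GUT2 at 0.73 and CTA1 at 0.39 were the highest. In unstressed siw14 cells 5 of these targets lay above 0 and 6 below. SFC1, for the mitochondrial succinate and fumarate carrier, and REG2 had no value on that array.

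With both strains in peroxide, the same targets had 2 of 11 at least 2-fold higher in siw14, against 12.8% of features: CTA1, for the peroxisomal catalase, at 4.23 and IDP2, for the cytosolic isocitrate dehydrogenase, at 1.87. In KCl they had 4 of 13, against 11.4% of features, namely the carnitine acetyltransferase gene CAT2 at 1.64, the carnitine carrier gene CRC1 at 1.62, SFC1 at 1.58 and CTA1 at 1.17. The medians were 0.45 in peroxide and 0.67 in KCl. In wild-type cells 1 of 13 was at least 2-fold higher in peroxide, CAT2 at 1.23, against 10.7% of features. In wild-type KCl it was 5 of 13, against 11.5%, with GUT2 for the mitochondrial glycerol phosphate dehydrogenase highest at 2.42.

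Among other activators of glucose-repressed genes, HAP4 had the highest ratio on each siw14 array. HAP4 encodes the activating subunit of the Hap complex, which drives genes of respiration. It lay at 1.52 unstressed, 1.32 in peroxide and 2.55 in KCl for siw14 against wild type, but at -1.11 and -0.39 in wild-type peroxide and KCl. It was the only 1 of 7 such genes past 2-fold in unstressed siw14 cells. SIP4, which encodes a Cat8-like activator, had no value there, and lay at 0.24 and 1.13 in siw14 against wild type in peroxide and KCl, and at 0.90 and 1.60 in wild-type peroxide and KCl.

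Genes of glucose signalling had ratios on both sides of 0. Of 13 genes for the Snf1 kinase, its phosphatase and Mig1 repression, 0 were at least 2-fold higher or lower in unstressed siw14 cells. The shares of all features there were 6.18% higher and 1.55% lower. The median of the 13 genes was 0.055. In peroxide, 3 of 13 were at least 2-fold lower in siw14 than in wild type, against 8.3% of features: SIP1, for a scaffold subunit of the kinase, at -1.34, and TUP1 and CYC8, for the corepressor that Mig1 recruits, at -1.29 and -1.05. SIP1 lay at -0.73 and TUP1 at -0.64 in unstressed siw14 cells. In wild-type peroxide SIP1 lay at -1.16, the only 1 of the 13 past 2-fold there. On that array 10.7% of features were at least 2-fold higher and 11.3% lower. SIP2, for another scaffold subunit, was 2-fold or more higher in KCl, at 1.13 in siw14 against wild type and at 1.37 in wild-type cells. SNF1 itself lay between -0.075 and 0.63 on the 5 arrays, and MIG1 between -0.59 and 0.80.

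Of 7 isoenzymes and paralogues, 2, 4 and 4 were at least 2-fold higher on the siw14 arrays unstressed, in peroxide and in KCl. The shares of all features were 6.18%, 12.8% and 11.4%. Medians of the list were 0.71, 1.12 and 1.09, against 0.18, 0.81 and 0.95 for the 10 genes. In wild-type cells 2 of 7 passed that mark in peroxide and 1 of 6 in KCl, against 10.7% and 11.5%. CIT3 lay at 1.05, 1.47 and 1.09 on the siw14 arrays. ICL2 lay at 1.23 in siw14 in KCl, and DAL7 at 1.12 in siw14 in peroxide. CIT1, for the mitochondrial citrate synthase, lay at 1.27, 2.07 and 1.58 in siw14 against wild type without stress, in peroxide and in KCl, and at 1.21 and 2.36 in wild-type peroxide and KCl. Unlike CIT2 it was past 2-fold on all 5 arrays. MDH1, for the mitochondrial malate dehydrogenase, lay at 0.73, 1.23 and 1.44 on the siw14 arrays, whereas peroxisomal MDH3 lay between 0.11 and 0.77 on all arrays. ACS2, the acetyl-CoA synthetase gene used on glucose, was below 0 on every array, from -1.09 in wild-type peroxide to -0.088 in wild-type KCl, opposite in sign to ACS1.

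Opposing and bridging steps were mixed. PYK2, the pyruvate kinase gene that glucose represses, was past 2-fold on all 5 arrays, from 1.17 in siw14 against wild type in KCl to 2.60 in wild-type peroxide. CDC19, the main pyruvate kinase gene of glycolysis, was past 2-fold on 4 of 5 arrays, from 0.85 in unstressed siw14 cells to 1.98 in wild-type peroxide, with 1.19 and 1.17 in KCl for siw14 against wild type and for wild-type cells. ACO1, for aconitase, lay at -1.20 in wild-type peroxide, the only 1 of these genes at least 2-fold lower on any array. Of all features on that array, 11.3% were at least 2-fold lower. The phosphofructokinase genes PFK1 and PFK2 were under 2-fold on all 5, between -0.98 and 0.25. PYC1, for a pyruvate carboxylase, lay at 2.20 in wild-type KCl but between -0.73 and -0.15 on the siw14 arrays.

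Genes of the GID ligase had 0 of 7 at least 2-fold higher in unstressed siw14 cells, 3 of 7 in peroxide and 3 of 7 in KCl, against 6.18%, 12.8% and 11.4% of features. Their medians were 0.53, 0.93 and 0.88. In wild-type cells 3 of 7 were at least 2-fold higher in peroxide, against 10.7% of features, and 5 of 7 in KCl, against 11.5%. VID24, whose product recognises fructose bisphosphatase and related enzymes, was the lowest of the list in unstressed siw14 cells at 0.12 and past 2-fold only in siw14 against wild type in KCl, at 1.43. RMD5 and FYV10, for the ligase's RING subunits, lay at 1.12 and 1.24 in siw14 in peroxide and at 1.05 and 1.54 in KCl.

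Genes that feed the route had ratios far from 0 in both directions. In acetate and ethanol supply, 3 of 9 genes were at least 2-fold higher in unstressed siw14 cells, 4 of 9 in peroxide and 5 of 9 in KCl, against 6.18%, 12.8% and 11.4% of features. In wild-type cells the counts were 2 of 9 in peroxide and 6 of 8 in KCl, against 10.7% and 11.5% of features. At least 2-fold lower were ALD6 at -1.28 in wild-type peroxide and ALD5 at -3.67 in wild-type KCl, both genes for aldehyde dehydrogenases. The shares of all features at least 2-fold lower on those arrays were 11.3% and 11.7%. ALD6 also lay at -0.96 in siw14 against wild type in KCl. The aldehyde dehydrogenase genes ALD3 and ALD4 lay at 2.67 and 1.72 in unstressed siw14 cells, and at 7.55 and 3.87 in wild-type KCl. ATO2, for a putative ammonium and acetate transporter, lay between 1.36 and 2.86 on all 5 arrays.

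Of the genes listed for lactate use, CYB2 and DLD1 were above 0 on all 5 arrays, while DLD2 and DLD3 also had ratios below 0. CYB2, for the mitochondrial lactate dehydrogenase that acts on the lactate brought in by Jen1, lay at 1.99, 2.82 and 3.36 in siw14 against wild type without stress, in peroxide and in KCl, and at 1.71 and 3.54 in wild-type peroxide and KCl. CYB2 was past 2-fold on all 5 arrays, whereas JEN1 was so only in wild-type KCl. DLD1, for another mitochondrial lactate dehydrogenase, lay at 0.56, 0.93 and 1.05 on the siw14 arrays and at 0.84 and 1.85 on the wild-type arrays. DLD3 ran the other way in the deletion strain, at -0.73, -1.09 and -1.98 on the siw14 arrays, against 0.087 and 0.81 on the wild-type arrays, and DLD2 lay between -0.37 and 0.26 on all 5.

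**Figure D4:**
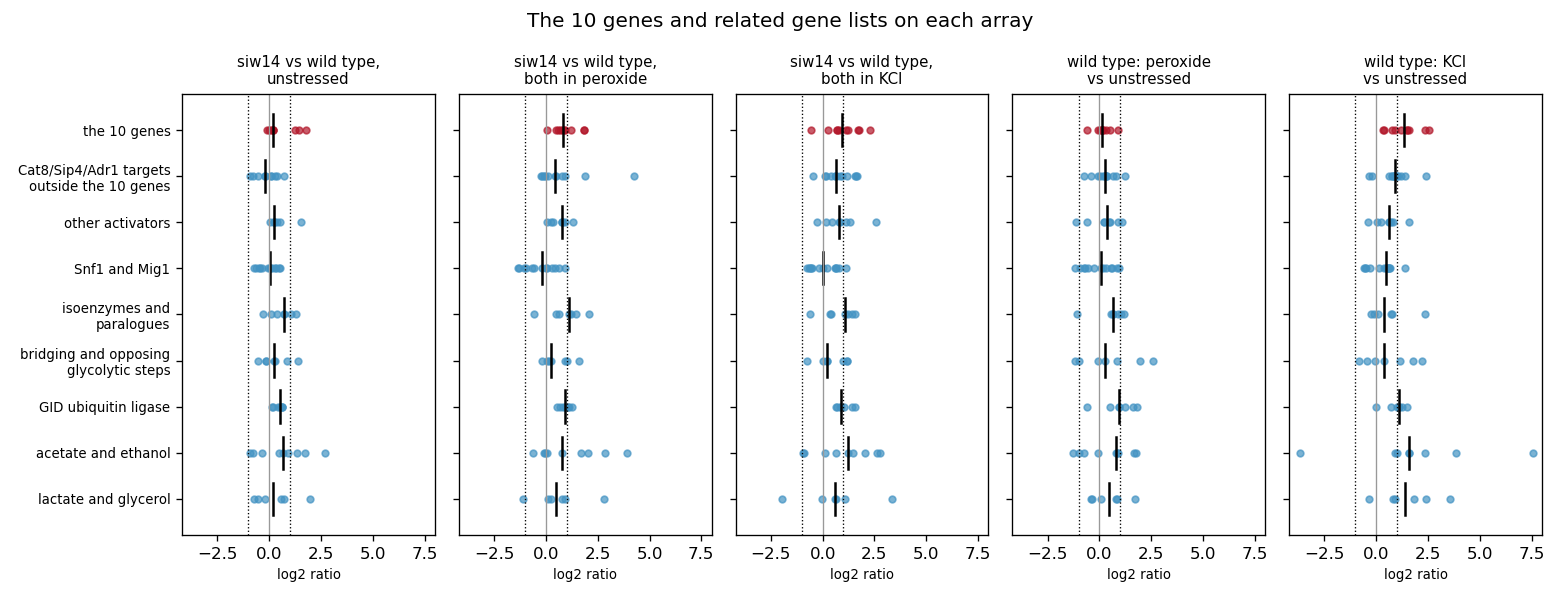
Log2 ratios of the 10 genes (red) and of each related gene list (blue) on the 5 arrays, with 1 point for each gene with a value, a black bar at the list's median and dotted lines at 2-fold. The genes for Snf1 and Mig1 have medians between -0.19 and 0.48, while acetate and ethanol genes run from -3.67 (ALD5) to 7.55 (ALD3) in wild-type KCl.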

How the data were processed

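The authors deposited 1 value per probe and array, taken as a log2 ratio of Cy5 over Cy3 from the dyes per the labels. Not given in the sources used here are the log base, background correction, normalisation and cause of missing values. The highest value among yeast features was 9.69. If the scanner had 16 bits and no intensity was below 1, which was assumed and not checked, base 10 would reach only 4.82. Natural logarithms could give 9.69. Of 6256 yeast probes, 4075 had 1 gene symbol, 0 had several and 2181 had none. Of the symbols, 3942 were current in RefSeq (assembly R64), 129 were updated through synonyms and 4 were kept. Probes of 1 gene were averaged, and 53 control features were left out of every count. Of the 72 related genes, 65 were matched by symbol, and the others are not analysed here.

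Every comparison has 1 array, so genes were counted by a 2-fold rule, read against the share of all features past the same mark, with no test. The text names all 10 genes and, of each related list, the 2 highest and 2 lowest on an array and those past 2-fold, in part; SNF1, MIG1, MDH1, MDH3, PFK1, PFK2, DLD1, DLD2 and some repeated values were named after their values were seen. The 10 genes and the lists were chosen with earlier results of these data known. Counting and scaling were tested on simulated data. Python 3.11.15, numpy 2.4.6, pandas 2.3.3 and matplotlib 3.10.9 were used. The number of arrays limits the precision.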

Additional observations from a re-analysis of the deposited data

Results flagged for a closer look

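For siw14 against wild type, CIT2 lay on opposite sides of 0 under peroxide (0.85) and under KCl (-0.56). JEN1 lay on opposite sides of 0 in wild-type cells under stress against unstressed cells, at -0.58 in peroxide and at 1.47 in KCl. Both pairs were picked out because each value was at least 0.5 in size and the signs were opposite, and neither difference was tested, since each value comes from 1 array.

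The E1A control features, which are outside the yeast measurement, had a median of 2.08 on the unstressed siw14 array, above the 1.76 of ICL1 there. Only 3 of these features had a value on that array.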

How the results depend on the processing

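Setting array medians to 0 left each count of genes past 2-fold as it was. Array medians lay between -0.017 and 0.030, so no median of the genes could move by 0.42, the median gap between probes of 1 gene. Scaling the arrays to a common spread also left these counts as they were, but raised the share of all features at least 2-fold higher in unstressed siw14 to 12.3% and turned the median difference of siw14 in KCl minus unstressed to -0.058, against -0.075 over all features. Read as natural logarithms, the counts of genes at least 2-fold higher became 6 for siw14 in peroxide, 8 for siw14 in KCl, 1 for wild-type peroxide and 8 for wild-type KCl, against 19.8%, 18.4%, 19.7% and 18.6% of all features, and the medians became 1.37 for siw14 in KCl and 1.91 for wild-type KCl. With a 1.5-fold mark these 4 counts became 8, 8, 1 and 8, against 23.2%, 21.9%, 22.9% and 21.8% of features; that of unstressed siw14 was 3 under both, against 9.64% and 11.8%. With a 3-fold mark the counts became 1 for unstressed siw14, 2 for siw14 in peroxide, 3 for siw14 in KCl and 2 for wild-type KCl, against 2.89%, 6.11%, 4.76% and 5.21%, and 0 for wild-type peroxide, against 4.18%. The differences under other marks follow from their construction. Among single genes, 17 of 49 ratios moved by more than 0.42 when read as natural logarithms and 3 of 49 when scaled. Both counts follow from construction, since each setting multiplies all ratios of an array by the same factor. Of 49 ranks, 0 moved by over 5 percentage points among named genes only. No paired analysis was possible because each comparison had 1 array. No replicate could be left out for the same reason.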

Other observations

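The nearest genes with a named probe on either side of several genes with high ratios, by their order in RefSeq R64, had ratios of their own. In unstressed siw14 cells against wild type, FBP1 at 1.45 lay between PSY3 at -0.24 and SEC61 at -0.78. ICL1 at 1.76 lay between THO1 at 0.70 and MOT2 at 0.030, and CAT8 at 1.24 between FCP1 at -0.52 and GPI12 at 0.38. In wild-type KCl, JEN1 at 1.47 lay between SRY1 at 0.90 and URA1 at -2.18, CIT2 at 2.56 between YCP4 at 1.25 and SAT4 at 0.24, and ADR1 at 2.37 between AHA1 at 0.47 and RAD9 at 0.33. These neighbours were chosen after the values were seen. None of those named had a higher ratio than the gene it flanks, but URA1 was farther from 0 than JEN1. Only genes with high ratios were chosen here, and others had higher neighbours. In wild-type KCl, PCK1 at 0.90 lay beside UBP11 at 1.71, and ICL1 at 0.76 beside THO1 at 1.49. Some neighbours were not adjacent: SAT4 was 5 places from CIT2 and MOT2 4 places from ICL1.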
